A study of Mus musculus with 12 samples.

Results

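Adult hearts of mice carrying a dominant-negative form of the mitochondrial calcium uniporter (DN-MCU) were compared with hearts of wild-type (WT) littermates across all genes on the array. These were 6 of the 12 arrays of the series, 3 per genotype, and the other 6 came from newborn mice of both genotypes. Members were taken by their labels: CD1 strain, male, 42 days old, whole excised heart, genotype DN-MCU or WT. The labels give each array a biological replicate number of its own, and the arrays are named below by genotype and that number. The promoter that drives the DN-MCU transgene, and the cells in which it acts, are not given in the sources used here. Each value is a normalized log2 signal of 1 Affymetrix probe set, made from 500 ng of total RNA, so a difference of 1 is a factor of 2 in signal. Changes in genes outside a list of the amino acid stress response are described here, and a gene off that list may still belong to the response. The values of the main genes are also given without the array DN-MCU 3.

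The uniporter is a calcium-selective channel of the inner mitochondrial membrane, through which calcium released during contraction enters the matrix and can raise the activity of matrix dehydrogenases. MCU forms its pore, and a dominant-negative subunit enters the channel together with the normal subunits and blocks its conduction. The amino acid stress response is the set of ATF4 target genes for amino acid synthesis, uptake and transfer RNA charging, which mitochondrial faults are known to induce.

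Cardiomyocyte markers averaged 15.13 to 15.34 in the 6 adult arrays, so the labelled tissue was borne out by its defining genes. DN-MCU 3 stood apart from the other 5 arrays. In a principal component analysis, where component 1 carried 55% of the variance, it scored -121.4 and the others -26 to 49.4. In this array 235 of 11269 genes were more than 1 log2 unit above, and 775 more than 1 unit below, every other adult array. The next highest such numbers were 80 and 54, both in DN-MCU 1. The mean signal of the 64 control probe sets was 9.82 in DN-MCU 3 and 8.56 to 8.83 elsewhere. Adipocyte markers averaged 6.53 in the same array and 7.70 to 9.15 in the others. Ucp1, the uncoupling protein of brown fat, read 2.36 in DN-MCU 3, 9.86 and 10.72 in the other DN-MCU hearts and 9.89, 7.11 and 7.77 in WT. Not every marker was low in DN-MCU 3, as Cidea read 11.13 and Pnpla2 10.32, within the range of the other arrays. DN-MCU 1 held transcripts of developing T cells: Cd8b1, a co-receptor chain, read 8.61 there and 2.56 to 3.02 in the rest, and Rag1, a recombinase of lymphocyte precursors, read 9.86 against 2.63 to 4.93. WT 1 differed from the other WT hearts too. Mesothelial and epicardial markers averaged 6.57 there against 5.16 in WT 2 and 5.37 in WT 3, and fibroblast markers 11.81 against 11.27 and 11.33. Of the mesothelial and epicardial list only Tbx18, at 6.26 against 6.40 and 6.77, was not higher in WT 1. Endothelial markers were alike, at 9.98 against 9.99 and 10.04. The part of these tissue differences in the results below was not tested. Values of the main genes are given without DN-MCU 3. Without any other array, DN-MCU 1 and WT 1 among them, only counts and some list medians are given.

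**Figure D1:**
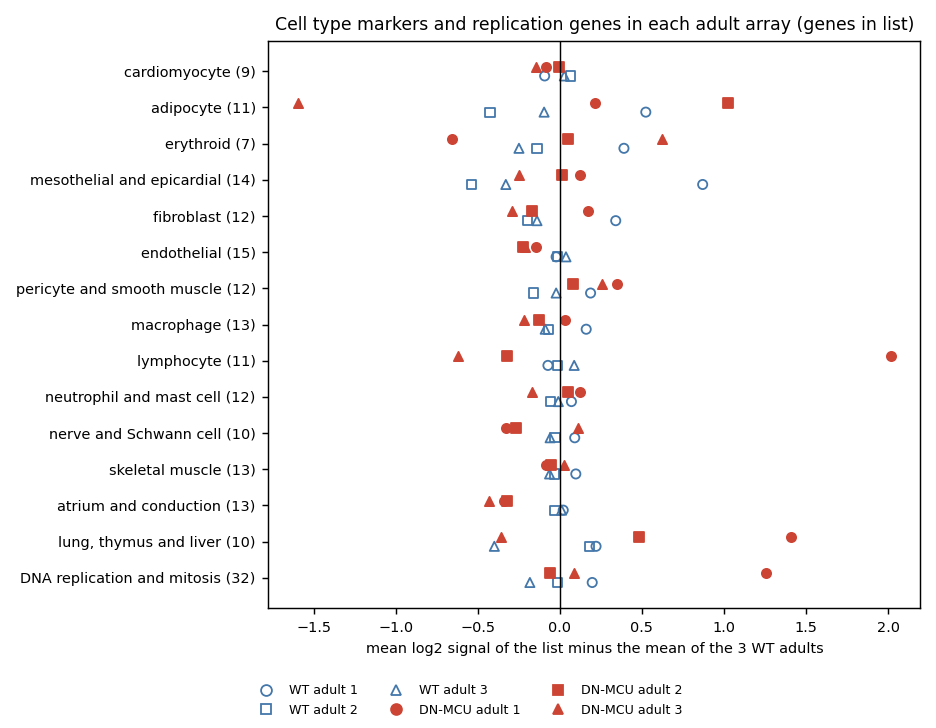
Mean log2 signal of each cell type marker list in each of the 6 adult arrays, drawn on the x axis as the difference from the mean of the 3 WT arrays (log2), with 1 symbol per array, open for WT and filled for DN-MCU, and the lists and their numbers of genes on the y axis. DN-MCU 3 lies low for adipocyte markers, DN-MCU 1 lies high for lymphocyte and for lung, thymus and liver markers, and cardiomyocyte markers lie close to 0 in every array.

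The array carries a pair of Mcu probe sets that pass the signal filter, and they differed. Probe set 1442031_at read 4.55, 2.45 and 3.06 in WT hearts 1 to 3 and 8.85, 9.64 and 10.42 in DN-MCU hearts 1 to 3. The genotypes did not overlap, and the difference was 6.28 (SE 0.64; limma with Benjamini-Hochberg adjustment, adjusted p = 0.0221). Probe set 1453166_at read 7.84, 7.72 and 7.41 in WT and 7.39, 7.54 and 8.14 in DN-MCU hearts, which overlapped (0.03, adjusted p = 0.981). Whether the transgene's RNA holds the stretch read by either of them was not tested.

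Of 22739 probe sets tested, 93 were higher (0.409%) and 19 lower (0.0836%) in DN-MCU hearts at an adjusted p under 0.05, 112 in all (0.493%), and 2378 had an unadjusted p under 0.05. With each gene read by its brightest probe set, 54 of 11269 genes rose (0.479%) and 10 fell (0.0887%), which is 0.568% of them. The listed genes of the amino acid stress response made up 16 of the rises and none of the falls. The remaining 38 rises and 10 falls are the subject here, and 28 of those rises and 9 of the falls belonged to none of the 56 gene lists used. Among the 38, 30 rose by at least 2 log2 units and 14 by at least 3. For 9 rises the WT mean, and for 6 falls the DN-MCU mean, was at or below the filter level of 3.43, so these sizes are measured against signals near background. In bulk tissue, fewer cells of a type and less RNA per cell cannot be told apart.

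The number of called probe sets depended on single arrays. It was 112 with all 6 arrays, 44, 24 and 20 without WT 1, WT 2 and WT 3, and 30, 62 and 213 without DN-MCU 1, DN-MCU 2 and DN-MCU 3. Each of the 48 genes kept its direction in every one of these fits. That outcome was fixed in advance, as none of them overlapped between the genotypes. Avil, Brca2, Pcbd1 and Shisa3 kept an adjusted p under 0.05 whichever array was left out, and the other 44 lost it at least once. Of the 48 genes, 12, 8 and 5 kept their call without WT 1, WT 2 and WT 3. It was 7 without DN-MCU 1, the array with T cell transcripts, 14 without DN-MCU 2 and 40 without DN-MCU 3. The animals' names fall into 2 number series, with WT 1 and DN-MCU 1 in one and the other 4 animals in the other. With these series as a block in the fit, 15 of the 48 genes kept their call. All 112 probe sets were without overlap between the genotypes, beside 17.6% of all probe sets. The calls rest on the same values, so this is a description and adds no evidence for them.

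**Figure D2:**
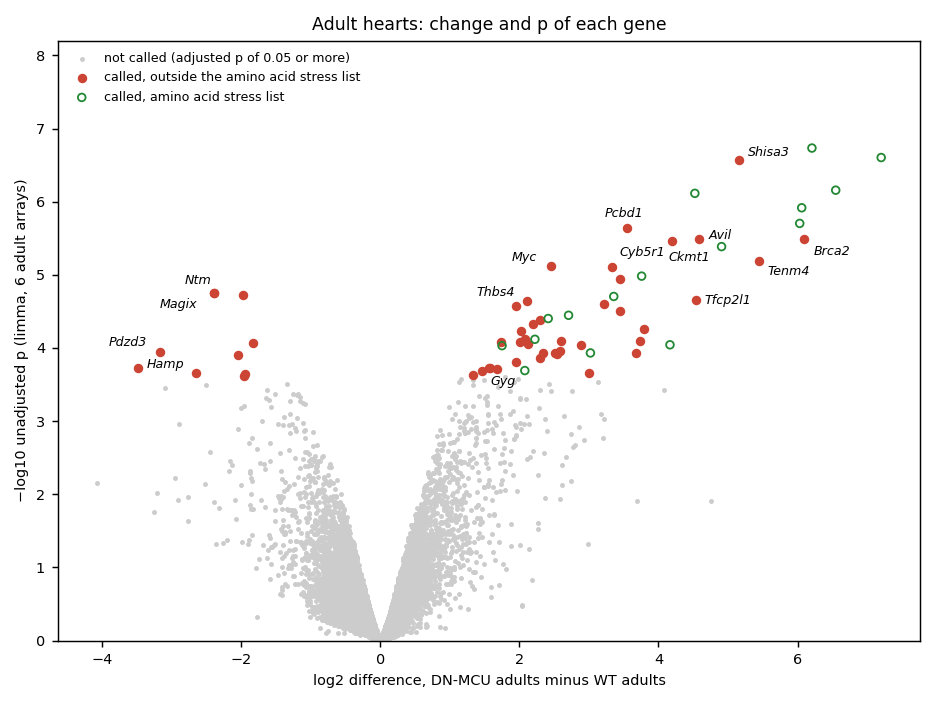
Each point is 1 gene, read by its brightest probe set, with the log2 difference DN-MCU minus WT on the x axis and −log10 of the unadjusted limma p over the 6 adult arrays on the y axis. Red points (48 genes) and open green points (16 genes of the amino acid stress list) passed an adjusted p under 0.05, grey points did not, and Brca2 at 6.10 lies farthest to the right among the red points.

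ATF4 and its partners bind composite C/EBP-ATF elements, and the letters TGATGNAA describe their core. To set the genes described here beside the stress genes, the RefSeq promoters (GRCm38.p6) were searched for TGATGNAA on both strands of the 250 bases before each start. These letters were found before 5 of the 13 stress genes that rose and had a promoter entry (38.5%), before 1 of 35 rises outside the list (2.86%) and before 0 of 10 falls. They were found in 2.41% of the promoters of all kept genes and in 3.91% of all 27025 promoters. Parts of 3 promoters are shown with the match in capitals, from Asns and Fgf21 in the stress list and from Avil, the 1 match outside it. They lie at chr6:7693210-7693289 on the minus strand, chr7:45615586-45615665 on the minus strand and chr10:127000629-127000708 on the plus strand, and each is written 5′ to 3′ along its gene. In Fgf21 the match is on the opposite strand.
Asns: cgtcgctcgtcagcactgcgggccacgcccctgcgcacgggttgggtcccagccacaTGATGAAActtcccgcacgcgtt
Fgf21: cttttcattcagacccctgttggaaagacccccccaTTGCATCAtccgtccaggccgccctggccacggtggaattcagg
Avil: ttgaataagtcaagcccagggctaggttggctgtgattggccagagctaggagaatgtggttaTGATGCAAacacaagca
The E-box letters CACGTG, read by Myc among other factors, were found before 3 of the 35 rises (8.57%) and in 10% of the promoters of all kept genes. A match is a description of letters, not a binding site. The stress list is made of ATF4 target genes, so its share follows in part from that choice. Most of its 13 genes held no match, so the lack of one does not show that a gene is not a target.

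Among genes read by their brightest probe set, the largest rise outside the stress list was in Brca2, a gene of DNA double-strand break repair. Only 1 probe set of Brca2 was kept, so no second one could be compared. Its signal was 2.87, 3.85 and 2.46 in WT hearts and 9.19, 8.85 and 9.43 in DN-MCU hearts. All 3 DN-MCU hearts were far above a WT signal near background, and the difference was 6.10 (SE 0.39, adjusted p = 0.00413), or 5.96 (adjusted p = 0.0183) without DN-MCU 3. Its neighbour on the chromosome, N4bp2l1, shared the pattern in 1 of its probe sets, at 3.03, 2.59 and 2.78 in WT and 7.25, 6.78 and 7.21 in DN-MCU hearts (adjusted p = 0.00192). Its brighter probe set was also higher without overlap and did not pass (2.14, adjusted p = 0.0944). The nearest other kept genes on either side, Fry and N4bp2l2, differed by -0.15 and 0.00. Any gene between them that was not kept could not be read. Brca2 and N4bp2l1 were the only adjacent pair among 6863 pairs of kept genes in which both were called on at least 1 probe set. The pair was singled out after its values were seen. Of the 25 DNA repair and p53 genes kept from the list, Brca2 was the 1 called, and the list's median difference was 0.07. Cdkn1a, the p21 cell cycle inhibitor, read 8.51, 7.39 and 7.28 in WT and 10.60, 9.62 and 11.18 in DN-MCU hearts without passing (2.74, adjusted p = 0.103).

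Several rises concern transcription and growth control. Tfcp2l1, a grainyhead-family transcription factor, was at 2.71, 2.66 and 2.65 in WT and at 7.83, 7.49 and 6.31 in DN-MCU hearts. It rose by 4.54 (SE 0.40, adjusted p = 0.014), with DN-MCU 3 the lowest of its group, and the difference without that array was 4.98 (adjusted p = 0.00219). Zfp423, a zinc-finger factor known from fat cell commitment, rose by 3.74 from 4.91, 4.63 and 4.63 to 8.02, 7.98 and 9.40 (adjusted p = 0.0291). It was higher in DN-MCU 3, where adipocyte markers were low, than in the other hearts, and without that array the difference was 3.28 (adjusted p = 0.00712). Myc, a transcription factor of growth and ribosome production, was tightly grouped at 3.32, 3.63 and 3.25 in WT and 5.90, 5.89 and 5.77 in DN-MCU hearts. Its rise of 2.46 (SE 0.18, adjusted p = 0.00653) was the only call among the 31 kept genes of the Myc, G1 cyclin and ribosome biogenesis list, whose median was 0.18. Without DN-MCU 3 Myc differed by 2.50 (adjusted p = 0.0153). Snd1, a coactivator and RNA-binding nuclease, rose by 2.29 and Zfp385b by 2.34. Ints6, a subunit of the Integrator complex, rose by 2.30 on its brightest probe set, but only 1 of its 4 kept probe sets was higher, so its call is uncertain.

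Other rises were in proteins of the cell surface or outside it. Tenm4, a large teneurin of the cell surface, rose by 5.44 (SE 0.39, adjusted p = 0.00582) from 3.22, 1.93 and 3.15 to 8.14, 7.99 and 8.50, and its 3 probe sets were all higher by 4.11 to 5.96. Shisa3, which holds back Wnt and FGF receptors, had the smallest adjusted p of the 38 (0.00121). It read 3.75, 3.55 and 3.56 in WT and 9.13, 8.71 and 8.50 in DN-MCU hearts, a difference of 5.16 (SE 0.22). Without DN-MCU 3 the differences were 5.29 for Tenm4 (adjusted p = 0.0231) and 5.30 for Shisa3 (adjusted p = 0.00242). Shisa3 was the 1 call among the 32 kept genes of the Wnt, Notch, hedgehog and TEAD list, whose median was 0.00. Angptl6, a secreted angiopoietin-like protein, rose by 3.45 and Cela1, an elastase, by 3.22.

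Among matrix and growth factor genes, Thbs4 and Tgfb2 passed. Thbs4, a matricellular protein induced in stressed heart muscle, read 8.2, 8.0 and 8.07 in WT and 10.41, 9.98 and 10.20 in DN-MCU hearts (2.11, adjusted p = 0.014). Tgfb2, a transforming growth factor, read 8.26, 8.13 and 8.22 against 10.64, 10.27 and 9.93 (2.08, adjusted p = 0.0287), and its 4 probe sets were all higher. Without DN-MCU 3 they differed by 2.10 and 2.25 (adjusted p = 0.0238 and 0.0183). Of the 17 collagen genes 0 were called, and their median was 0.10, from -0.13 to 0.36 as single arrays were left out. In the list of matricellular and remodelling genes Thbs4 was the 1 call of 29, with a median of 0.06.

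Several rises were in metabolic enzymes. Ckmt1, the creatine kinase of mitochondria in non-muscle tissues, was near background in WT at 3.07, 3.00 and 2.90 and read 7.05, 6.79 and 7.71 in DN-MCU hearts. It rose by 4.2 (SE 0.27, adjusted p = 0.00413), and both of its probe sets were higher. Pcbd1, which regenerates the tetrahydrobiopterin cofactor of aromatic amino acid hydroxylases, rose by 3.54 (SE 0.21, adjusted p = 0.00324) from 4.19, 3.69 and 3.63 to 7.46, 7.25 and 7.43. Cyb5r1, of the cytochrome b5 reductase family, was well above background in WT at 8.44, 8.46 and 8.32 and rose by 3.34 to 12.18, 11.36 and 11.71 (adjusted p = 0.00653). Nmrk2, the muscle kinase that makes NAD from nicotinamide riboside, rose by 2.52 from 8.72, 8.54 and 8.54 to 11.32, 10.51 and 11.52 (adjusted p = 0.0335). Without DN-MCU 3 the difference was 3.93 for Ckmt1, 3.52 for Pcbd1, 3.36 for Cyb5r1 and 2.32 for Nmrk2, all with an adjusted p under 0.05.

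Gyg, the glycogenin primer of glycogen, moved from 12.24, 12.22 and 12.59 to 13.94, 13.70 and 13.80 in DN-MCU hearts (1.46, adjusted p = 0.0454). Without DN-MCU 3 the difference was 1.47 with an adjusted p of 0.0509, so the call was lost without that array. Lonp1, the ATP-dependent protease of the mitochondrial matrix, rose by 1.68 from 10.01, 9.98 and 9.90 to 12.01, 11.45 and 11.46 (adjusted p = 0.0439), and by 1.77 without DN-MCU 3 (adjusted p = 0.045). It was the only call in the list of mitochondrial chaperones and proteases, whose median was 0.10. Pmm1, a phosphomannomutase, rose by 3.00, Renbp, an epimerase of amino sugars, by 1.95, and Slc19a2, a thiamine transporter, by 1.56. Slc41a2, a magnesium transporter, rose by 1.33.

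The remaining rises were of various kinds. Avil, the actin-severing protein advillin, read 2.41, 2.42 and 2.62 in WT and 7.22, 6.48 and 7.50 in DN-MCU hearts, with no overlap (4.59, SE 0.29, adjusted p = 0.00413; 4.37 without DN-MCU 3, adjusted p = 0.0117). Kif5c, a kinesin motor, rose by 3.67, Septin6 by 3.45 and Map1b, a microtubule-binding protein, by 2.03. Otub2, a deubiquitinase, rose by 3.79. Grk5, a kinase that desensitizes adrenergic receptors, rose by 1.73 from 8.64, 8.56 and 8.30 to 10.36, 10.03 and 10.30 (adjusted p = 0.0291), and by 1.69 without DN-MCU 3 (adjusted p = 0.0436). Rgs7, which speeds the turn-off of G proteins, rose by 2.19. Agap1 rose by 2.54, Steap2 by 2.60, Mlana by 2.58, Eprn by 2.89, Tspan17 by 2.12 and Mlec by 1.57, and Paqr3 and 1500002F19Rik complete the 38 rises.

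**Figure D3:**
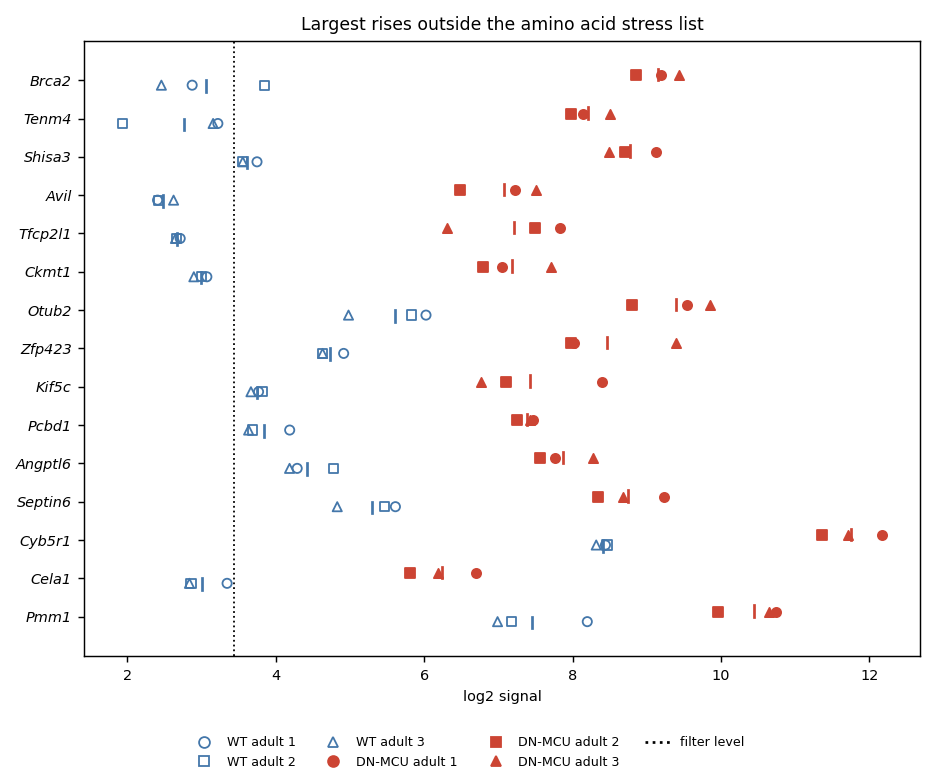
Log2 signal (x axis) of genes that rose outside the amino acid stress list (y axis), with 1 symbol per adult array, open blue for WT and filled red for DN-MCU, short bars at the group means and a dotted line at the filter level of 3.43. In every gene drawn the DN-MCU points lie above all WT points, for Brca2 from 8.85 against a highest WT value of 3.85.

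The largest fall was in Hamp, which encodes hepcidin, the peptide that closes the iron exporter ferroportin and is also made by heart muscle. It read 11.27, 10.13 and 10.66 in WT and 6.52, 7.88 and 7.22 in DN-MCU hearts. The genotypes were far apart, with a difference of -3.48 (SE 0.44, adjusted p = 0.0439), and a second probe set differed by -3.80 (adjusted p = 0.0268). Without DN-MCU 3 the first probe set lost its call (-3.49, adjusted p = 0.069) and the second kept it (-3.85, adjusted p = 0.0494). Of the 21 kept genes for iron and haem handling Hamp was the 1 called, and the list's median was -0.13. Ano10, an anoctamin membrane protein, fell by 2.65 from 9.55, 10.07 and 9.67 to 6.72, 6.79 and 7.81 (adjusted p = 0.046). Fbp2, the muscle fructose bisphosphatase, fell by 1.95 from 8.34, 8.43 and 8.66 to 6.09, 6.60 and 6.89 (adjusted p = 0.0466). In both genes DN-MCU 3 was the array of its group nearest to WT, and without it the differences were -3.01 (adjusted p = 0.015) and -2.13 (adjusted p = 0.0358).

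The other falls were in dimmer genes. Pdzd3, a PDZ scaffold protein, fell by 3.17 from 4.94, 6.09 and 5.94 to 2.13, 2.48 and 2.86 (adjusted p = 0.0335). Ntm, the adhesion protein neurotrimin, fell by 2.39 from 5.78, 6.30 and 6.01 to 3.51, 3.66 and 3.76 (adjusted p = 0.0124). Fgf14, an intracellular FGF that binds sodium channels, fell by 2.04 from 4.92, 5.41 and 4.64 to 2.83, 2.97 and 3.05 (adjusted p = 0.034). In these genes the DN-MCU signals were close to background, so a larger fall could not have been read. Without DN-MCU 3 they differed by -3.35, -2.45 and -2.09 (adjusted p = 0.045, 0.0231 and 0.0494). Magix fell by 2.39, Itgb6, an integrin subunit, by 1.97, Fam131a by 1.95 and B330016D10Rik by 1.83.

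**Figure D4:**
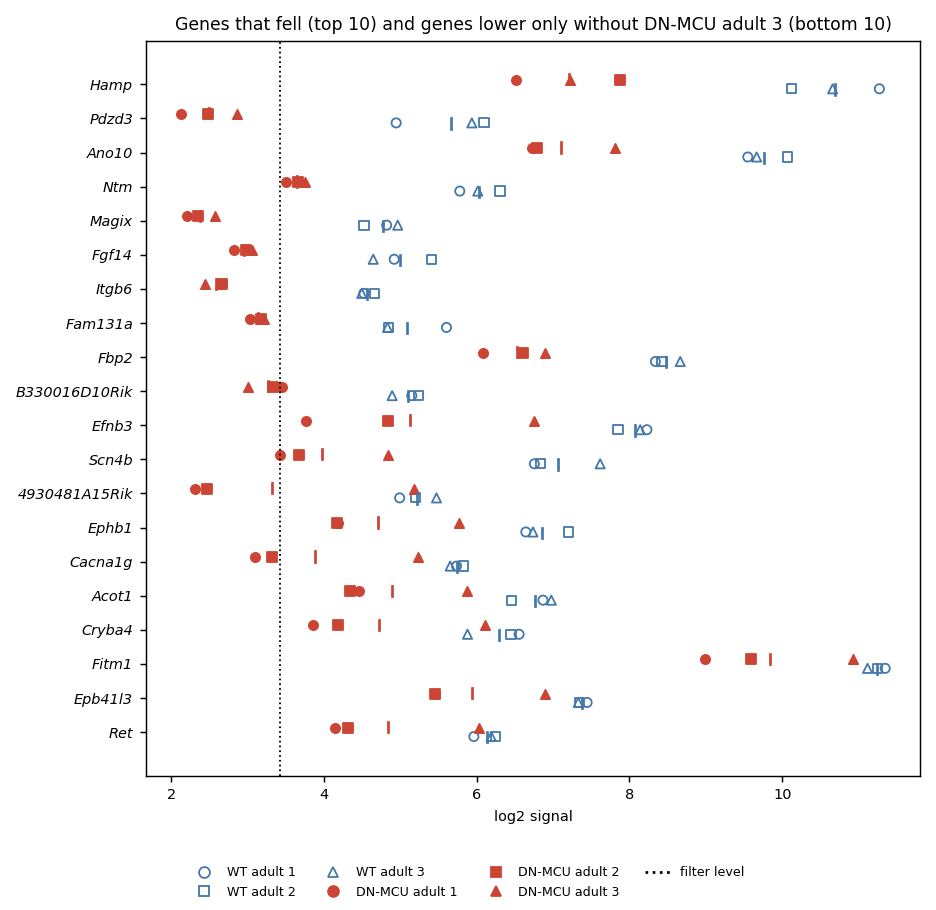
Log2 signal (x axis) of genes lower in DN-MCU hearts (y axis), with 1 symbol per adult array, short bars at the group means and a dotted line at the filter level of 3.43; the upper 10 genes were called with all 6 arrays and the lower 10 only without DN-MCU 3. Among the upper genes all DN-MCU points lie below all WT points, and among the lower genes DN-MCU 3 is the DN-MCU array nearest to WT, as in Cacna1g at 5.23 against 3.10 and 3.32.

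Leaving out DN-MCU 3 raised the calls to 153 probe sets higher (0.673%) and 60 lower (0.264%), or 0.937% of all tested and 1.04% of genes, of which 98 were among the 112. The median SD over the DN-MCU arrays was 0.416 with it and 0.155 without it, beside 0.232 in WT. Of the 48 genes outside the stress list, 32 rises and 8 falls were also called without it. The 8 that lost their call were Eprn, Gyg, Mlana, Pmm1, Slc19a2 and Zfp385b among the rises and Hamp and Fam131a among the falls, with adjusted p from 0.0502 to 0.0737 without it. A further 29 genes were higher and 29 lower only without it, and in 49 of these 58 DN-MCU 3 lay on the same side of the WT mean.

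Falls called only without DN-MCU 3 included cardiac ion channel subunits. Scn4b, a sodium channel β subunit, read 6.75, 6.83 and 7.62 in WT and 3.43, 3.68 and 4.83 in DN-MCU hearts. Its difference was -3.09 (adjusted p = 0.0597) with all arrays and -3.51 (adjusted p = 0.0234) without DN-MCU 3. Cacna1g, a T-type calcium channel, read 5.74, 5.83 and 5.65 against 3.10, 3.32 and 5.23, so that the third DN-MCU heart lay close to WT (-1.86, adjusted p = 0.313; -2.53, adjusted p = 0.0119 without it). Ephb1 and Efnb3, a receptor and a ligand of the ephrin system, were lower too, at -2.68 and -3.77 without that array. Acot1, a cytosolic thioesterase of fatty acyl-CoA, read 6.87, 6.45 and 6.98 against 4.46, 4.34 and 5.88 (-2.36 without the array, adjusted p = 0.0234). Sln, the sarcolipin that slows the calcium pump of atrial muscle, was low in all 3 DN-MCU hearts, at 12.34, 12.36 and 11.98 against 13.45, 13.61 and 13.62 (adjusted p = 0.0566 with all arrays, 0.0447 without the third). Atrial and conduction markers, with Sln among them, averaged 9.33 to 9.44 in DN-MCU and 9.73 to 9.78 in WT hearts. Of the 12 kept markers 9 were lower and 3 higher in DN-MCU hearts, Myl4 and Nppa higher without overlap. The part of atrial tissue in the value for Sln was not tested.

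Rises called only without that array included Tchhl1 at 4.77, Maoa at 3.33 and Ccnd2 at 2.40. Maoa, the monoamine oxidase that degrades noradrenaline and serotonin, read 7.08, 7.02 and 6.90 in WT and 10.98, 9.68 and 8.92 in DN-MCU hearts (adjusted p = 0.0984 with all arrays, 0.0455 without the third). Ccnd2, a G1 cyclin, read 10.39, 10.38 and 10.49 against 13.12, 12.52 and 11.70 (adjusted p = 0.0993 and 0.0257). For both, every DN-MCU heart was above every WT heart. Ern1, the IRE1 sensor of the endoplasmic reticulum, read 8.45, 8.70 and 8.50 against 9.73, 9.72 and 10.22 (adjusted p = 0.0736 and 0.0496).

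Beyond single genes, among the lists other than cell type markers the lowest medians were those of fatty acid use and of creatine, ketone body and branched-chain amino acid use, both at -0.50. The median difference of 29 kept genes of fatty acid uptake and oxidation compares with -0.0024 over all 11269 genes, and it was -0.47 without DN-MCU 3. None of the 29 was called, but 17 (58.6%) were lower without overlap, beside 8.31% of all genes. The per-array mean of the list was 12.01, 12.15 and 12.11 in WT and 11.46, 11.63 and 11.76 in DN-MCU hearts, so the genotypes did not overlap. Hadha, the α subunit of the trifunctional protein, read 12.60, 12.59 and 12.73 against 11.85, 12.01 and 11.92 (-0.72, adjusted p = 0.164). Acot2, a mitochondrial thioesterase, lay on the other side at 1.00 (adjusted p = 0.193). Shares without overlap above those of all genes were also found in lists with medians near 0. Of 20 genes of glycolysis and glucose uptake (median 0.00), 30% were lower and 25% higher without overlap. Of the 25 DNA repair and p53 genes (median 0.07), 20% were lower and 24% higher. Such a share alone therefore does not show a shift of a list.

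Genes for creatine, ketone body and branched-chain amino acid use were 25 in number, 10 of them lower without overlap (40%, beside 8.31% of all genes). Bdh1, which interconverts ketone bodies, read 11.58, 12.22 and 11.60 in WT and 9.54, 11.22 and 10.99 in DN-MCU hearts (adjusted p = 0.459). Ivd, a dehydrogenase of leucine breakdown, read 11.87, 11.92 and 11.98 against 10.46, 10.95 and 11.32 (adjusted p = 0.214). The medians were -0.25 for the tricarboxylic acid cycle and -0.15 for the 52 kept genes of the respiratory chain and ATP synthase, of which 44 were below 0 and 0 were called.

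Calcium cycling genes of the sarcoplasmic reticulum had a median of -0.39 over 23 genes (-0.26 without DN-MCU 3). Of these, 7 were lower without overlap (30.4%, beside 8.31% of all genes and 30% of the glycolysis list). Hrc, a histidine-rich calcium-binding protein of that store, read 13.13, 13.36 and 13.28 in WT and 11.45, 12.42 and 12.75 in DN-MCU hearts (adjusted p = 0.371). The calcium pump Atp2a2 differed by -0.05, from 15.46, 15.57 and 15.60 to 15.50, 15.51 and 15.47. Casq1, calsequestrin of fast skeletal muscle, read 10.09, 8.74 and 8.74 against 6.66, 5.66 and 8.09 (-2.38, adjusted p = 0.284). Myot, the Z-disc protein myotilin, had the lowest difference of any gene, at -4.07, but a wide spread: 11.38, 11.07 and 11.76 in WT and 5.04, 7.59 and 9.36 in DN-MCU hearts (adjusted p = 0.221, and 0.069 without DN-MCU 3). Myh6, the main cardiac myosin, differed by -0.02. Atp2a2 and Myh6 lay close to the top of the scale, so these small differences do not show that their RNA was unchanged.

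In the hypertrophy and fetal list, Tgfb2 was the 1 call of 28, with a median of 0.24 and 9 genes higher without overlap (32.1%, beside 10.5% of all genes). Nppb, the stretch-induced natriuretic peptide, read 12.73, 12.72 and 13.09 in WT and 14.00, 13.96 and 14.37 in DN-MCU hearts (1.27, adjusted p = 0.0845). Nppa was close to the top of the scale in all arrays and differed by 0.34. Acta2, Egr1, Uchl1 and Vgll2 were also higher without overlap and not called, Vgll2 with 8.81, 5.88 and 4.41 against 2.57, 2.98 and 2.49.

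The lists of endoplasmic reticulum stress, NRF2 targets and purine and polyamine synthesis had medians above 0, and those of sterol and fatty acid synthesis (-0.12) and mitochondrial translation (-0.08) below it. The endoplasmic reticulum stress list had a median of 0.25 over 23 genes, with 7 higher without overlap (30.4%, beside 10.5% of all genes) and 0 called. Hspa5, its main chaperone, differed by 0.00. Glutathione and NRF2 target genes had a median of 0.20, and 11 of 30 were higher without overlap (36.7%). Gss, glutathione synthetase, read 6.50, 5.98 and 6.44 against 7.59, 7.32 and 7.43 (adjusted p = 0.103), whereas Nqo1, a classical NRF2 target, lay at -1.08. The purine, pyrimidine and polyamine list, with Nmrk2 as its 1 call of 29, had a median of 0.18 and 10 genes higher without overlap (34.5%). DNA replication and mitosis genes had a median of 0.46, but 0.07 without DN-MCU 1, the array with T cell transcripts, whose list mean was 5.79 against 4.35 to 4.73 in the other 5 arrays.

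**Figure D5:**
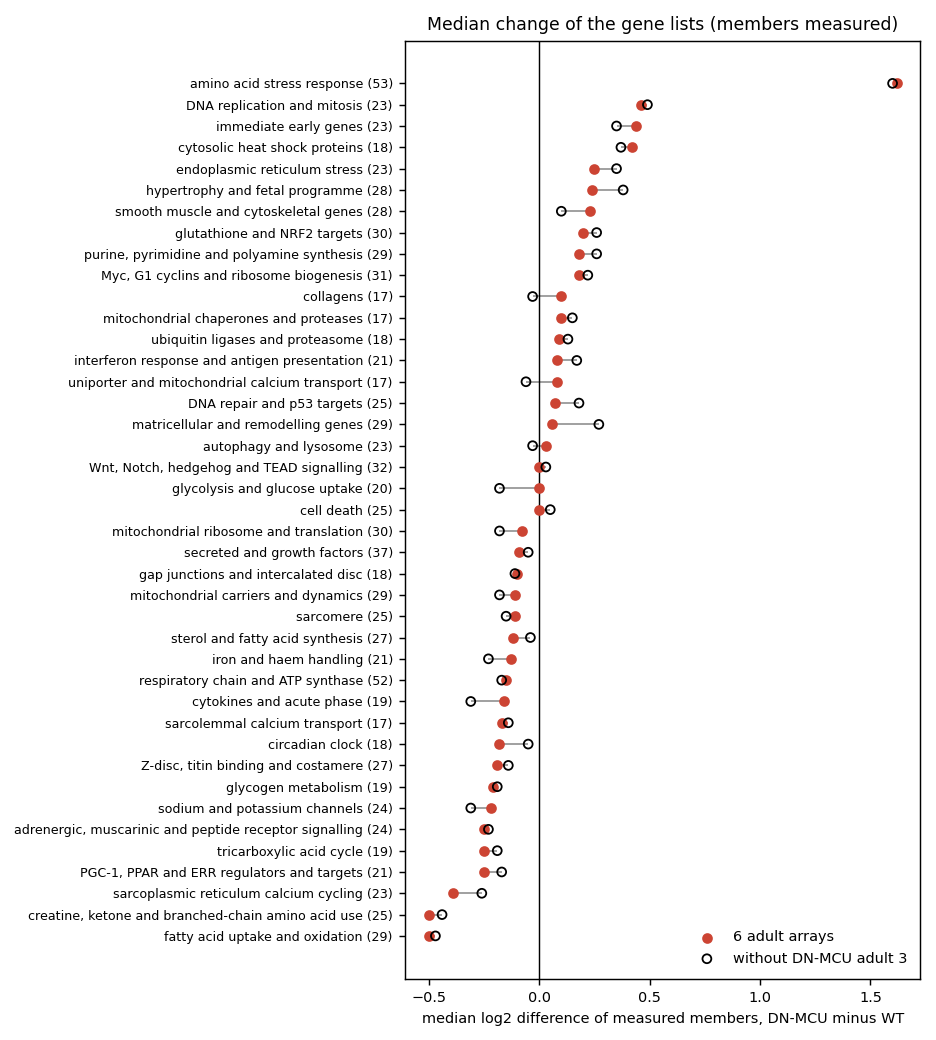
Median log2 difference DN-MCU minus WT (x axis) of each gene list (y axis), with filled symbols for all 6 arrays and open symbols without DN-MCU 3, and the number of kept genes beside each name. The amino acid stress list stands at 1.62, fatty acid uptake and oxidation at -0.50 and DNA replication and mitosis at 0.46.

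Newborn hearts were used to see how far the adult changes were present at 1 day. For the 38 rises outside the stress list the neonatal difference ranged from -0.38 to 1.02 with a median of 0.15, beside 2.53 in the adults and a neonatal median of 0.03 over all genes. In newborns 6 of the 38 were higher without overlap, beside 9.27% of all genes. For the 10 falls the neonatal difference ranged from -0.16 to 0.21. The difference between ages, fitted over all 12 arrays, passed for 134 of 22739 probe sets (0.589%), including 27 of the rises and 7 of the falls. These genes were chosen by their adult change, which enters that difference, so the 27 and 7 are a description.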

How the data were processed

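Per the labels' protocols, heart RNA was turned into biotinylated cRNA for 3′ expression arrays from Affymetrix. The values are log2 signals deposited by the authors as 1 table of 45101 probe sets, a scale read from their range. The submitters' processing notes name Partek but neither its version nor its role, and how arrays were normalized is not given in the sources. Probe sets were named from the platform annotation: 34945 had 1 gene, 932 several and 9160 none, and 34741 matched the RefSeq gene table.

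After removal of 64 control probe sets, those were kept for which the third highest of 6 adult values exceeded the median of all adult values (log2 3.43), which left 22739, of which 19634 had 1 gene, for 11269 genes. Each gene was read by its kept probe set with the highest mean. Signals near that level are close to background, which limits the precision for dim genes, and with 3 animals per group p values are imprecise; an exact test of 3 against 3 cannot go below 0.1. The 6 adult arrays were modelled by group in limma 3.58.1 (R 4.3.3), with variances moderated and p values adjusted by Benjamini-Hochberg over all 22739 probe sets; the same fit was run without DN-MCU 3. Only adult arrays set the spread, because DN-MCU adults varied more than newborns. The difference between ages used all 12 arrays with 1 weight per group. "Called", "rose" and "fell" mean an adjusted p under 0.05, and "without overlap" means that every array of one genotype lay beyond every array of the other. Lists are described by counts and medians, with no test.

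Genes named were the largest called changes outside the amino acid stress list in each direction, called members of the lists, the largest changes called only without DN-MCU 3, members of a list with the smallest p, and a few fixed cardiac genes. The members and lists were chosen with earlier results of these data known, and the promoter letters, the neighbouring genes and the array checks were chosen after values were seen. Same-numbered animals of the 2 genotypes were compared by the correlation of their deviations from the group means (-0.391, 0.42 and -0.434), so the numbers were not taken to pair them. The scripts were tested on simulated data. With 200 changed probe sets, the adult fit recovered 6.4% of changes of 1 log2 unit and 47.8% of changes of 2. A list with few or no calls can therefore hold changes that the fit missed. Of the calls in the simulated data 9.52% were false, a larger share than an adjusted p under 0.05 aims at. The simulated probe sets varied independently, without shifts shared within an array such as those of DN-MCU 3. The false share among the real calls may therefore differ. Promoter sequences are from RefSeq (GRCm38.p6). Alternatives were other spreads, weights, blocks, scalings, filters, probe set choices and the loss of each array. Mcub was not analysed here.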

Additional observations from a re-analysis of the deposited data

Results flagged for a closer look

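The effect of DN-MCU in adults minus its effect in newborns passed the test of that difference (limma over 12 arrays with group weights, adjusted p from 5.6e-06 to 0.0398) for 47 of 154 named genes tested. All of these were named for their adult values or as cardiac genes, so the adult part of each difference is not independent of the choice. Among 37 genes with the more positive effect in adults, the difference was 5.82 for Brca2, 5.24 for Tenm4, 5.03 for Shisa3 and 4.61 for Avil. It was 4.13 for Ckmt1, 4.12 for Tchhl1, 3.91 for Kif5c, 3.84 for Tfcp2l1, 3.83 for Septin6 and 3.50 for Angptl6. For Zfp423 it was 3.48, for Pcbd1 3.47, for Krt18 3.41, for Slc24a2 3.27, for Otub2 3.23, for Cldn23 3.12, for Maoa 3.03 and for Cela1 3.00. Smaller differences were 2.93 for Cyb5r1, 2.64 for Eprn, 2.53 for Ints6, 2.46 for Comtd1, 2.35 for Agap1, 2.27 for Map1b and 2.2 for Rgs7. They were 2.16 for Tgfb2, 2.12 for Kif26b, 2.0 for Zfp385b, 1.99 for Glce, 1.89 for Ccnd2 and 1.84 for Renbp. The last of this direction were 1.78 for Thbs4, 1.64 for Tspan17, 1.55 for Grk5, 1.41 for Il1b, 1.39 for Lonp1 and 1.36 for Gyg.

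In the other direction there were 10 genes. The difference was -4.21 for Myot, -3.17 for Pdzd3, -3.12 for Scn4b and -2.81 for Ano10. It was -2.38 for Magix, -2.18 for Ephb1, -2.04 for B330016D10Rik, -2.0 for Itgb6, -1.98 for Fgf14 and -1.95 for Fam131a. In the adult comparison of 6 arrays, 13 of the 47 had not passed: Myot, Scn4b, Ephb1, Krt18, Ccnd2, Cldn23, Comtd1, Glce, Il1b, Kif26b, Maoa, Slc24a2 and Tchhl1.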

How the results depend on the processing

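The 48 genes, where tested, kept their direction under every alternative of the fit, scaling and filter. As they did not overlap between the genotypes, a filter, a weight or the loss of 1 array could not have turned it. The counts of called probe sets did not hold. The adult count of 112 became 1189 with the spread of all 12 arrays, 280 with group weights over 12 arrays, 1254 with array weights, 42 with the animal number series as a block and 74 with no filter, and ranged from 20 to 213 as single arrays were left out. With the replicate number as a block it was 19; the numbers share only a number, and 3 of the 48 genes kept their call. Without DN-MCU 3 the count of 213 became 2237 and 972 with the spread or group weights of the remaining arrays of all 12, 82 with the number series as a block and 37 with no filter. It ranged from 9 to 63 as a further array was left out, where a lone DN-MCU sample is assumed to vary like WT. With the replicate block and without DN-MCU 3, limma gave 0 calls, with 2645 probe sets at an unadjusted p under 0.05. The difference between ages (134) became 25 with the replicate block and ranged from 24 to 516 as single arrays were left out. Quantile normalization, subtraction of array medians, a stricter filter and a trend with robust fitting kept both adult counts within 1.5 times and were not run for the difference between ages. Ints6 turned to -0.46 when the median over its probe sets was taken. Of 951 alternatives for list medians, 71 moved the median beyond the spread between arrays.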

Other observations

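Some genes were called on a probe set other than their brightest. Shmt1, the cytosolic serine hydroxymethyltransferase, was higher on 3 probe sets, of which 1425179_at read 4.50, 4.18 and 4.25 in WT and 7.95, 7.2 and 8.46 in DN-MCU hearts (limma adjusted p = 0.0178). Srxn1, sulfiredoxin, which reactivates peroxiredoxins, was higher by 2.12 on its dimmer probe set, at 4.40, 5.04 and 5.38 in DN-MCU hearts against 2.86, 2.79 and 2.83 in WT (adjusted p = 0.046). Zdhhc2, a palmitoyltransferase, was higher on a pair of such probe sets, by 2.70 and 2.28. Enah, an actin regulator re-expressed in stressed heart muscle, was higher by 1.64 on 1 probe set and by 0.38 on its brightest. Aqp4, a water channel, was lower by 1.55 on the log2 scale, a value close to background in DN-MCU hearts (2.59, 2.39 and 2.15 against 4.02, 3.74 and 4.03 in WT). Mdh1, cytosolic malate dehydrogenase, fell by 2.11 on 1438338_at and differed by -0.10 on its brightest probe set.

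Scgb1a1, a secretory protein of airway cells, varied within both genotypes, at 11.77, 13.11 and 8.21 in WT and 11.25, 12.27 and 4.27 in DN-MCU hearts, whereas the surfactant genes Sftpc and Sftpb were at background in all 6 arrays (2.00 to 3.00). Ttr, the thyroid hormone carrier transthyretin, read 3.81, 3.65 and 4.09 in WT and 5.88, 7.26 and 7.95 in DN-MCU hearts without passing (adjusted p = 0.084).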
